A study of Oryctolagus cuniculus with 134 samples.

Results

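The aortic valves of rabbits that received cardiac irradiation on top of a cholesterol-enriched diet (IR/CHT) were compared with those of chow-fed controls (Ctrl) by RNA sequencing. All aortic valve libraries labelled with either treatment were taken, which gave 7 IR/CHT and 7 Ctrl libraries, 14 of the 134 libraries of the study, each from a different rabbit. The animals were male New Zealand White rabbits that entered the protocol at 12 weeks of age and were followed for 16 weeks. Ctrl rabbits ate standard chow only. IR/CHT rabbits ate chow with 0.3% cholesterol, took vitamin D2 in the drinking water at 25000 U/day per 2.5 kg of body weight over 15 days, and after 8 weeks received X-rays on the heart, aimed at the aortic valve and the thoracic aorta, as 24 Gy in 3 fractions of 8 Gy. A group with the same diet and vitamin D2 but no irradiation (CHT, 6 aortic valve libraries) was used where stated. A group on chow with 5% lard and the same vitamin D2 (Lard, 7 aortic valve libraries) entered the fits, where it shared in the estimate of the spread, and is in no comparison here. Between IR/CHT and Ctrl, the diet, vitamin D2 and irradiation therefore cannot be told apart, and an irradiated group on chow was not analysed here.

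Aortic valve leaflets are thin sheets of extracellular matrix covered by endothelium and populated by valvular interstitial cells, fibroblast-like cells that build and repair the matrix. Lipoproteins that enter the leaflet can be taken up by macrophages, which store the cholesterol as droplets and break it down in lysosomes. Ionizing radiation damages DNA and activates p53, a transcription factor that halts the cell cycle, and radiation to the chest is a known risk factor for valve disease.

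Levels are given as CPM, the read count of a gene scaled to a common library size. The 7 Ctrl libraries held 13978094 to 20806309 assigned read pairs and the 7 IR/CHT libraries 16806754 to 26273291. The deposited counts came in 2 tables named plate 1 and plate 2. The sources used here do not state what a plate was. Plate 1 held 3 Ctrl and 4 IR/CHT libraries and plate 2 held 4 Ctrl and 3 IR/CHT libraries. The tissue label was checked with TBX20, a transcription factor of the developing valve, which lay between 327 and 527 CPM in the Ctrl aortic valves and between 5.85 and 13.3 CPM in the Ctrl aortas. The smooth muscle myosin MYH11 lay between 125 and 523 CPM in the Ctrl aortic valves and between 62057 and 87119 CPM in the Ctrl aortas (both genes on a scaling common to both tissues). Some libraries stood apart from the others of their group. The 13 mitochondrially encoded mRNAs made up less than 0.3% of the reads (0.0389% to 0.272%) in Ctrl L150, L166 and L261 and in IR/CHT L178 and L194. They made up 0.336% to 1.82% in the other libraries of these groups. Values just below and just above this cut lay close together, and it was set after seeing the data. A single gene without a symbol took 21.6% of the reads of Ctrl L150 and 19.7% of those of IR/CHT L194. Heart muscle genes were uneven among the Ctrl valves and highest in L240 and L277, as given with those genes below. In a principal component analysis, the first component (52.4% of the variance) separated IR/CHT from Ctrl and the second (22.1%) separated the 5 libraries low in mitochondrial mRNA from the other 9. In Ctrl and in IR/CHT alike, these libraries lay above all others of their group in the summed level of 4 of the 35 gene lists described below (collagens, TGF-beta and BMP pathway, cytokines, neutrophil markers). They lay below all others in 4 further lists (mitosis, DNA replication, mitochondrial respiratory chain, bone-related genes). The part of this split in the results was not tested beyond leaving these libraries out.

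**Figure D1:**
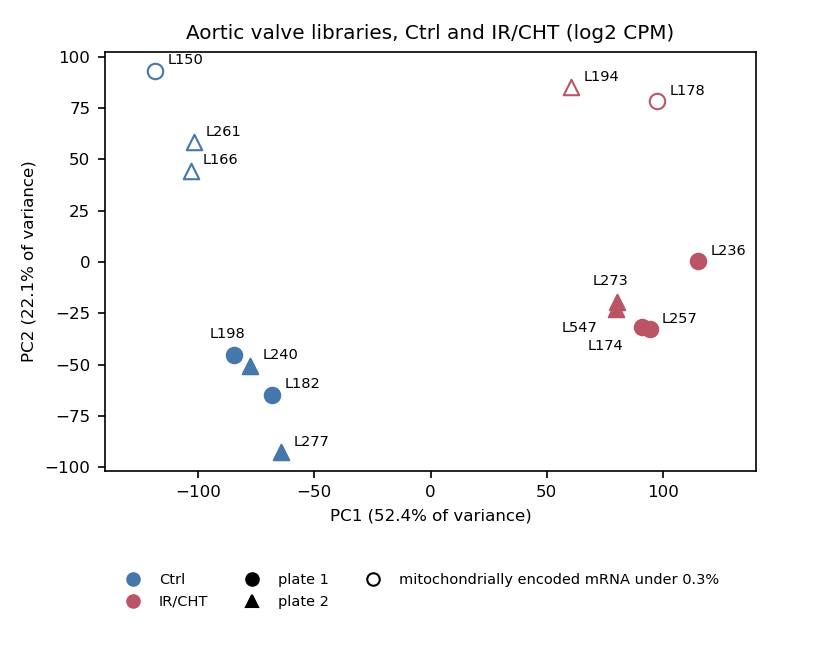
Principal components 1 and 2 of log2 CPM for the 7 Ctrl (blue) and 7 IR/CHT (red) aortic valve libraries, with circles for plate 1, triangles for plate 2 and open symbols for libraries with less than 0.3% mitochondrially encoded mRNA. The groups lie on opposite sides of component 1 (52.4% of the variance), while component 2 (22.1%) sets Ctrl L150, L166 and L261 and IR/CHT L178 and L194 above the others.

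The transcriptome of the irradiated cholesterol valve differed widely from that of the control valve. Of 15408 genes tested, 6587 (42.8%) were differentially expressed, here meaning an adjusted p under 0.05 by edgeR's quasi-likelihood test with Benjamini-Hochberg adjustment and a fold change over 1.5. Among them, 3251 were higher (21.1% of the genes tested) and 3336 lower (21.7%) in IR/CHT, and 1163 were higher and 1030 lower by more than 4-fold. The level of 3213 genes (20.9%) did not overlap between the groups, with 2002 (13.0%) entirely above and 1211 (7.86%) entirely below the Ctrl range. The median log2 fold change over all genes tested was -0.06. These shares are the background against which the counts in each gene group are to be read. Without the 5 libraries low in mitochondrial mRNA and the 2 CHT libraries and 1 Lard library also below 0.3%, 5950 genes were differentially expressed, and without Ctrl L240 and L277, 7066. Within plate 1 there were 5249, and within plate 2 there were 3372, of which 2002 were higher and 1370 lower. Calls within a single plate were followed gene by gene for the named genes and not for others given below, such as AXIN2, FDFT1 and TIMP3. Some calls of named genes given below were lost within a single plate, each with its direction kept. They were those of ACKR3, CLEC14A, CLU, DKK1, IL1B, LCK, PAX5, ROBO4, RUNX2 and SNAI1 within plate 1. Within plate 2 they were those of ACTA2, ALAS2, CLU, CYBRD1, DKK1, IGFBP5, IL16, IL1B, JAM3, LIPE, LPL, PAX5, ROBO4, S100A8 and SNAI1. Most of these log2 fold changes stayed within 1.5 times those over both plates, such as LCK (3.12 within plate 1 and 3.49 over both) and PAX5 (-1.41 and -1.40). The ones that shrank by more were CLEC14A within plate 1 (-0.87 against -1.55) and, within plate 2, ALAS2 (-1.0 against -2.50), IL16 (-0.40 against -1.11), LPL (1.91 against 3.65), ACTA2 (0.70 against 1.10) and CYBRD1 (-0.70 against -1.07).

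**Figure D2:**
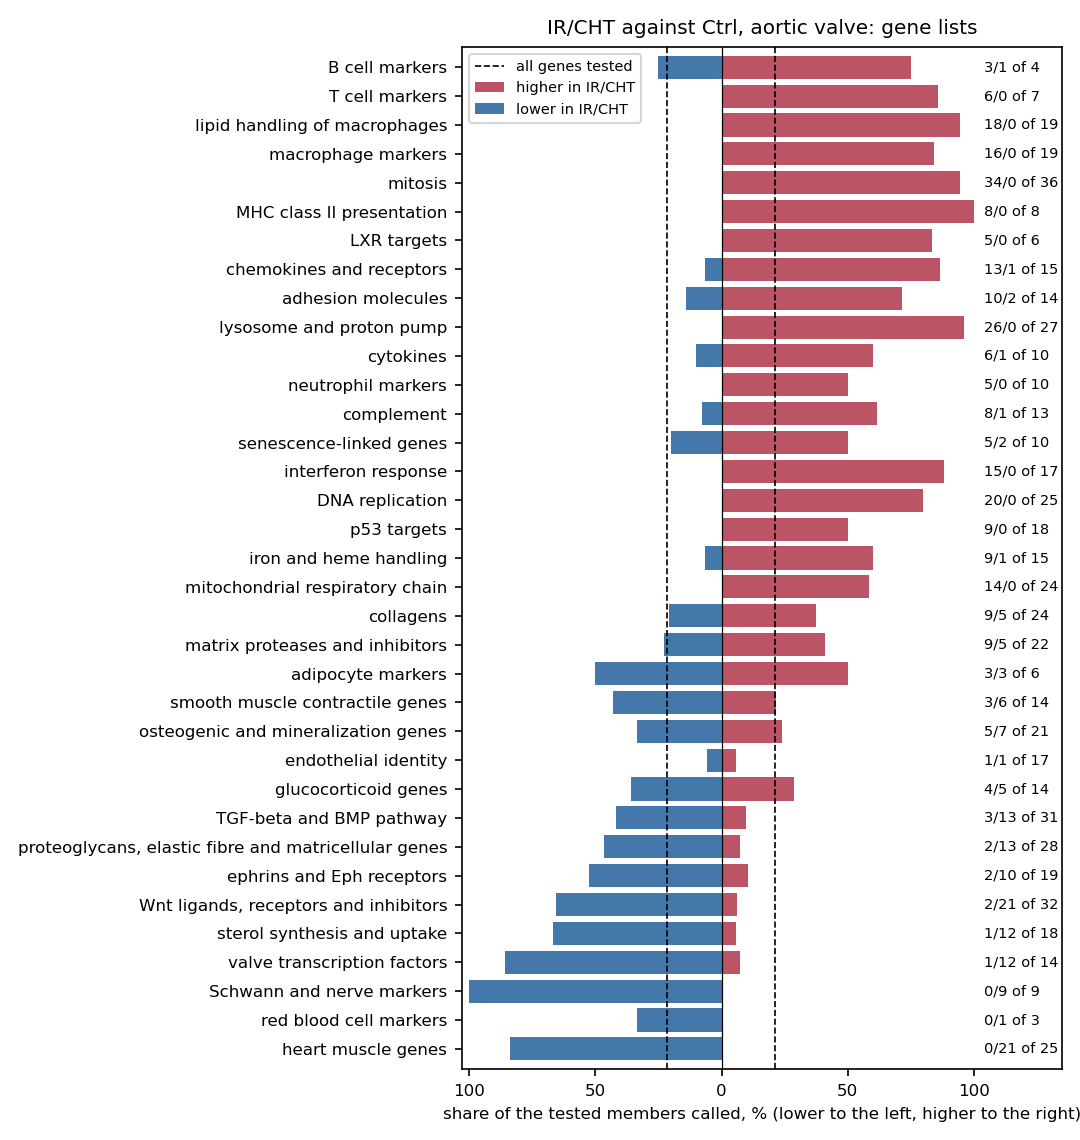
Share of the tested members of 35 gene lists that were differentially expressed between IR/CHT and Ctrl aortic valves, in percent, with genes higher in IR/CHT drawn to the right (red) and genes lower in IR/CHT to the left (blue), ordered by median log2 fold change. Dashed lines mark the shares over all genes tested (21.1% higher, 21.7% lower), and the counts at the right give higher/lower of tested, such as 18/0 of 19 for lipid handling of macrophages and 0/21 of 25 for heart muscle genes.

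The genes with a symbol and the smallest p among those that rose were GPNMB, ANO4, ABHD12, GLB1, SH3KBP1, NYAP2, CCDC15, FYB1, CD68 and ITGAM. GPNMB (ENSOCUG00000026334), a membrane glycoprotein of lipid-loaded macrophages, ranged from 4.04 to 12.3 CPM (median 6.87) in Ctrl and from 3442 to 9702 CPM (median 4084) in IR/CHT. Every IR/CHT valve was thus far above every Ctrl valve, with a log2 fold change of 9.54 ± 0.46 (SE, n = 7 per group, adjusted p = 9.49e-14). ANO4, a member of the anoctamin family of membrane proteins, ranged from 0.393 to 1.71 CPM (median 0.898) in Ctrl and from 218 to 314 CPM (median 253) in IR/CHT, a log2 fold change of 8.08 ± 0.41. GLB1, the lysosomal beta-galactosidase, lay between 26.4 and 38.8 CPM (median 27.6) in Ctrl and between 357 and 762 CPM (median 506) in IR/CHT, 16.6-fold higher. None of these ranges overlapped. ITGAM, the integrin alpha chain of myeloid cells also known as CD11b, had a median of 5.77 CPM in Ctrl and 465 CPM in IR/CHT and was 72.5-fold higher.

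Those that fell with the smallest p were PRKG1, FHOD3, TRPM3, ITGB8, TGFBR3, CNGA2, PDE3A, EPB41L4B, NCAM1 and ZBTB20. PRKG1, the cGMP-dependent protein kinase that relays nitric oxide signals, ranged from 159.1 to 380 CPM (median 212) in Ctrl and from 28.01 to 46.1 CPM (median 44.2) in IR/CHT, a log2 fold change of -2.53 ± 0.17 (adjusted p = 4.37e-12). PDE3A, a phosphodiesterase that degrades cyclic nucleotides, lay between 102 and 133 CPM in Ctrl and between 24.7 and 46.8 CPM in IR/CHT, 2.93-fold lower. TRPM3, a calcium-permeable cation channel, lay between 94.2 and 190.7 CPM in Ctrl and between 3.04 and 13.9 CPM in IR/CHT, 15.9-fold lower. The groups did not overlap for any of the 3. TGFBR3, the TGF-beta co-receptor betaglycan, and ITGB8, an integrin chain that activates latent TGF-beta, were 3.08-fold and 3.61-fold lower.

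Genes with which macrophages take up, store and degrade lipid were among the most changed. In the list of lipid handling of macrophages, 18 of 19 tested members rose and none fell (median log2 fold change 4.18), and all 18 lay above the Ctrl range in every IR/CHT library. PLIN2, which coats lipid droplets, ranged from 12.4 to 31.0 CPM (median 25.3) in Ctrl and from 195.6 to 477 CPM (median 245.9) in IR/CHT, a log2 fold change of 3.66 ± 0.24 (adjusted p = 5.6e-12). LIPA, the lysosomal acid lipase that hydrolyses cholesterol esters, had medians of 21.8 and 634 CPM and was 30-fold higher. NPC2, which carries cholesterol out of the lysosome, lay between 12.9 and 24.5 CPM in Ctrl and between 105 and 166.8 CPM in IR/CHT, 6.73-fold higher. MMP12, the macrophage elastase, gave at most 2 read pairs in any Ctrl valve and 470 to 2639 CPM in IR/CHT, so that no fold is given. The member that did not pass the test was CHI3L1, a secreted chitinase-like protein, with medians of 306 and 421 CPM.

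Liver X receptors (LXRs) are nuclear receptors that sterols activate and that turn on cholesterol export. Of 6 tested LXR targets, 5 rose and none fell (median 2.96). ABCA1, the pump that loads cholesterol onto apolipoproteins, ranged from 26.6 to 101 CPM (median 56.3) in Ctrl and from 1256 to 2107 CPM (median 1661) in IR/CHT. The lowest IR/CHT valve was above the highest Ctrl valve, with a log2 fold change of 4.96 ± 0.30 (adjusted p = 1.24e-12). NR1H3, which encodes LXR-alpha itself, was 10.3-fold higher, and LPCAT3, a phospholipid-remodelling enzyme, 5.85-fold higher. MYLIP, a ubiquitin ligase, had a median of 138 CPM in both groups and did not pass the test (adjusted p = 0.397).

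In the list of lysosomal and proton pump genes, 26 of 27 rose and none fell (median 2.33). CTSB, the cysteine protease cathepsin B, lay between 269.03 and 470 CPM (median 418) in Ctrl and between 4191 and 11766 CPM (median 6242) in IR/CHT, 17.2-fold higher. CTSZ, another cathepsin, had medians of 63.3 and 451 CPM. The member that did not pass was TFEB, a transcription factor of lysosomal genes, at medians of 16.9 and 14.7 CPM. Markers of macrophages moved with the lipid and lysosomal genes, as given below, and their part in these changes was not tested.

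The pathway that makes cholesterol went the other way. Of 18 tested genes of sterol synthesis and uptake, 12 fell and 1 rose (median -1.41). SQLE, the squalene epoxidase, ranged from 12.5 to 48.3 CPM (median 23.3) in Ctrl and from 5.10 to 7.68 CPM (median 5.76) in IR/CHT. No IR/CHT valve reached the Ctrl range, and the log2 fold change was -2.13 ± 0.27 (adjusted p = 3.76e-07). CYP51A1, which removes a methyl group from lanosterol, lay between 26.3 and 79.3 CPM in Ctrl and between 10.0 and 19.4 CPM in IR/CHT, a log2 fold change of -1.62 ± 0.21. FDFT1, the squalene synthase, had medians of 72.5 and 23.4 CPM, again without overlap. STARD4, a carrier of cholesterol inside the cell, was the member that rose, from a median of 3.87 to 22.0 CPM.

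Most macrophage markers rose, and genes that serve antigen presentation rose with them. Of 19 tested macrophage markers, 16 rose and none fell (median 3.52), and their summed level went from 310 to 822 CPM in Ctrl to 4168 to 5412 CPM in IR/CHT. In bulk tissue, more (or fewer) cells of a type and more (or less) RNA per cell cannot be told apart. CD68, a lysosomal glycoprotein of macrophages, ranged from 16.4 to 34.7 CPM (median 28.7) in Ctrl and from 494 to 987 CPM (median 683) in IR/CHT. The groups were well apart, with a log2 fold change of 4.75 ± 0.25 (adjusted p = 1.6e-13). CSF1R, the receptor for the macrophage growth factor M-CSF, had medians of 86.7 and 496 CPM and was 5.18-fold higher. The 3 members that did not pass were CD163, SIGLEC1 and MRC1, a haemoglobin scavenger receptor, a sialic acid-binding lectin and the mannose receptor. CD163 lay between 12.4 and 74.4 CPM in Ctrl and between 7.16 and 92.1 CPM in IR/CHT, so that the Ctrl range fell within that of IR/CHT (log2 fold change -0.21 ± 0.49, adjusted p = 0.744).

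All 8 tested genes of MHC class II presentation, which display antigen to helper T cells, rose (median 3.42) and none overlapped between the groups. CD74, the invariant chain, lay between 51.5 and 144 CPM in Ctrl and between 1187 and 2077 CPM in IR/CHT. HLA-DRA had medians of 14.5 and 446 CPM and was 30.8-fold higher, and CTSS, the cathepsin that trims the invariant chain, was 67.7-fold higher.

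T cell markers were low in absolute terms in both groups. Of 7 tested, 6 rose and none fell (median 4.57), and their summed level went from 2.17 to 5.89 CPM in Ctrl to 45.8 to 94.0 CPM in IR/CHT. IL7R, the receptor for interleukin-7, ranged from 0.674 to 2.93 CPM (median 1.06) in Ctrl and from 22.2 to 46.1 CPM (median 33.3) in IR/CHT, 23.7-fold higher. CD28, the costimulatory receptor, gave at most 4 read pairs in any Ctrl valve and 12.1 to 31.1 CPM in IR/CHT. LCK, the kinase bound to the T cell coreceptors, had medians of 0.151 and 3.57 CPM, and its groups overlapped. CD2, taken as a defining T cell gene, reached 0.235 CPM in Ctrl and had a median of 1.41 CPM in IR/CHT. Its highest IR/CHT level was 4.76 CPM (on the scaling common to both tissues).

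For B cells, BLNK, JCHAIN and CD22 rose and PAX5 fell among 4 tested genes. BLNK, an adaptor of the B cell receptor, lay between 3.48 and 6.52 CPM in Ctrl and between 75.6 and 112 CPM in IR/CHT. The defining B cell genes did not follow, since CD79B reached 0.957 CPM in Ctrl and 0.226 CPM in IR/CHT at most and MS4A1 was too low to be tested. The fall of PAX5 (log2 fold change -1.40 ± 0.49) was lost without Ctrl L261 (-1.03) or without IR/CHT L257 (-1.27).

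Of 10 tested neutrophil markers, 5 rose and none fell (median 1.82), and 4 of 9 rose without the libraries low in mitochondrial mRNA (median 3.26). Their summed level lay between 18.5 and 38.9 CPM in the 3 Ctrl libraries low in mitochondrial mRNA and between 8.75 and 12.8 CPM in the other Ctrl libraries. In IR/CHT it lay between 412 and 553.1 CPM in the 2 such libraries and between 120 and 317 CPM in the others, so that the groups were apart while the libraries low in mitochondrial mRNA were the highest in each. NCF4, a subunit of the phagocyte oxidase that macrophages also use, had medians of 4.71 and 38.5 CPM and a log2 fold change of 3.08. S100A8, an alarmin of neutrophils and monocytes, reached 0.519 CPM in Ctrl and lay between 0.643 and 4.81 CPM in IR/CHT. CSF3R, the G-CSF receptor that defines neutrophils, stayed at or below 3.06 CPM in Ctrl and 1.44 CPM in IR/CHT, and did not pass the test (adjusted p = 0.695). MPO was too low to be tested.

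Signals that recruit leukocytes rose, mostly from very low levels. Of 15 tested chemokines and receptors, 13 rose and 1 fell (median 2.65). CCL2, which attracts monocytes, ranged from 1.26 to 2.81 CPM (median 1.68) in Ctrl and from 15.1 to 27.3 CPM (median 19.6) in IR/CHT, 10.9-fold higher (adjusted p = 8.58e-08). CXCL10, an interferon-induced attractant of T cells, had medians of 0.228 and 9.95 CPM, and CCR1, a receptor of inflammatory chemokines, 0.106 and 12.3 CPM. In neither gene did the groups overlap. The member that fell was ACKR3, a receptor that scavenges CXCL12, from a median of 12.4 to 7.73 CPM, and this call was lost without the libraries low in mitochondrial mRNA (log2 fold change -0.51).

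Of 10 tested cytokines, 6 rose and 1 fell (median 2.28), and without the libraries low in mitochondrial mRNA 5 of 9 rose and 1 fell (median 1.86). The summed level of the list overlapped between the groups. It lay between 205.8 and 436 CPM in the 3 Ctrl libraries low in mitochondrial mRNA against 75.4 to 149 CPM in the other Ctrl libraries, and at 341 and 374 CPM in the 2 such IR/CHT libraries against 128 to 165 CPM in the others. IL1RN, the natural antagonist of interleukin-1, lay between 0.157 and 1.68 CPM in Ctrl and between 11.8 and 37.5 CPM in IR/CHT, 30.8-fold higher. IL1B itself rose from a median of 0.212 to 0.923 CPM with overlapping groups (log2 fold change 2.57 ± 0.69, adjusted p = 0.00309), a call lost without the libraries low in mitochondrial mRNA (log2 fold change 1.81). TNF had medians of 0.101 and 3.15 CPM. IL16, a lymphocyte attractant, was the member that fell, 2.16-fold.

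Leukocyte integrins led the adhesion molecules, of which 10 of 14 rose and 2 fell (median 2.48). ITGAL, the alpha chain of LFA-1, lay between 0.561 and 2.28 CPM in Ctrl and between 274.1 and 1007 CPM in IR/CHT, and ITGB2, its beta chain, between 6.01 and 16.6 and between 374 and 962 CPM. The members that fell were JAM2 and JAM3, adhesion molecules of cell junctions, and JAM3 went from a median of 23.0 to 11.0 CPM. Among the molecules with which endothelium captures leukocytes, ICAM1 (medians 56.4 and 89.5 CPM) and SELP (6.75 and 11.7 CPM) did not pass the test.

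In the interferon response list, 15 of 17 genes rose and none fell (median 1.72, and 2.35 without the libraries low in mitochondrial mRNA). OASL, an antiviral protein of the oligoadenylate synthetase family, reached 0.477 CPM in Ctrl and lay between 23.2 and 71.0 CPM in IR/CHT. IFIT3, another antiviral effector, ranged from 2.36 to 8.97 CPM (median 4.48) in Ctrl and from 52.96 to 199.3 CPM (median 78.8) in IR/CHT, a log2 fold change of 4.20 ± 0.39 (adjusted p = 1.47e-09). RSAD2 (viperin) and GBP1, a guanylate-binding protein, had medians of 0.371 and 1.49 CPM in Ctrl and of 10.7 and 34.5 CPM in IR/CHT. All 4 genes were above the Ctrl range in every IR/CHT valve.

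Of 13 tested complement genes, 8 rose and 1 fell (median 1.78). The receptors C5AR1 and C3AR1 rose 26.1-fold and 12.1-fold, and VSIG4, a complement receptor of macrophages, rose 7.03-fold. CFP (properdin), a soluble stabilizer of the alternative pathway, had medians of 1.90 and 18.04 CPM and was 8.72-fold higher without overlap. CLU (clusterin), a soluble inhibitor of the complement pore, lay between 957 and 2167 CPM in Ctrl and between 347 and 1180 CPM in IR/CHT and fell 1.99-fold with overlapping groups (adjusted p = 0.00794). The proteases C1R and C1S of the classical pathway had medians of 377 and 374 CPM in Ctrl and 408 and 381 CPM in IR/CHT and did not pass the test.

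**Figure D3:**
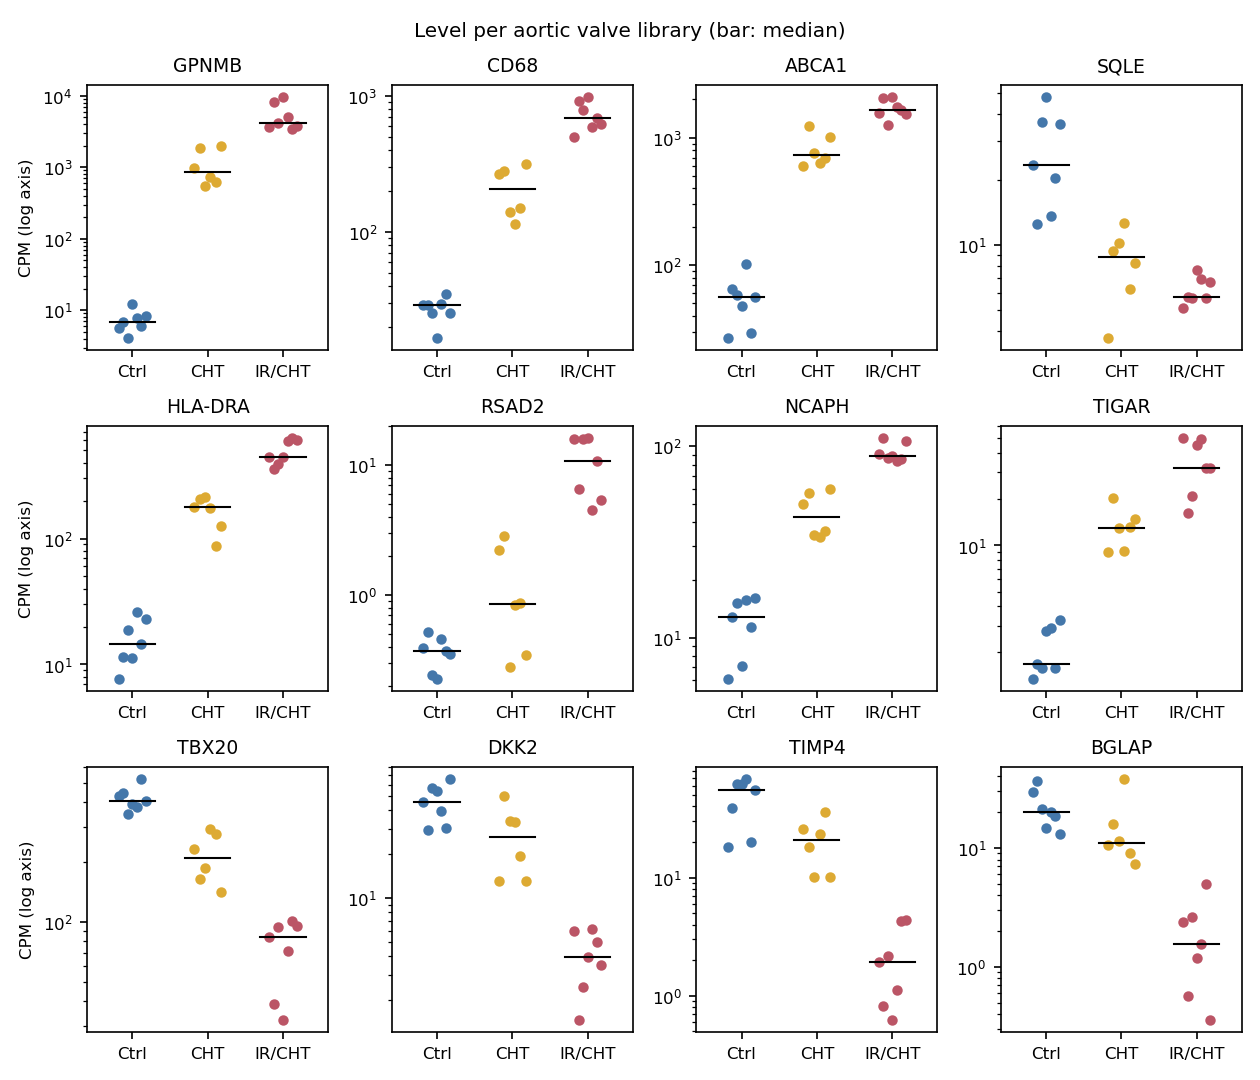
Level of 12 genes in each aortic valve library, in CPM on a log axis, for Ctrl (7 libraries), CHT (6) and IR/CHT (7), with 1 point per library and a bar at the median. Ctrl and IR/CHT do not overlap in any panel, and medians of CHT lie between theirs, for example at 853 CPM for GPNMB against 6.87 in Ctrl and 4084 in IR/CHT.

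Genes of mitosis rose together. Of 36 tested, 34 rose and none fell (median 3.52), and 31 of them did not overlap between the groups. NCAPH, a condensin subunit that compacts chromosomes, ranged from 6.05 to 16.2 CPM (median 12.8) in Ctrl and from 83.8 to 111 CPM (median 88.5) in IR/CHT, a log2 fold change of 2.95 ± 0.22 (adjusted p = 2.79e-11). KIF23 and KIF14, motor proteins of cell cleavage, had medians of 1.48 CPM each in Ctrl and of 20.5 and 13.2 CPM in IR/CHT. BUB1, a kinase of the spindle checkpoint, lay between 0.424 and 0.864 CPM in Ctrl and between 4.70 and 9.66 CPM in IR/CHT. The 2 members that did not pass were PLK1, a mitotic kinase, and BUB3, another checkpoint protein. Of 25 genes of DNA replication, 20 rose and none fell (median 1.64). RRM2, the ribonucleotide reductase subunit made in S phase, had medians of 0.504 and 24.3 CPM and was 38.9-fold higher, and MCM4, a subunit of the replicative helicase, was 8.53-fold higher.

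Of 18 tested p53 targets, 9 rose and none fell (median 0.97). TIGAR, which redirects glucose breakdown, lay between 1.34 and 3.28 CPM (median 1.67) in Ctrl and between 16.4 and 50.7 CPM (median 32.1) in IR/CHT, a log2 fold change of 4.03 ± 0.30 (adjusted p = 3.34e-11). ZMAT3, an RNA-binding protein, and GADD45A, a DNA damage-induced growth arrest protein, were 3.5-fold and 2.29-fold higher. In all 3 the groups did not overlap. Targets that did not pass included PLK2 (medians 33.4 and 29.3 CPM) and SESN1 (37.6 and 36.7 CPM), while CDKN1A and MDM2 had no symbol in the annotation used and could not be read.

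Genes linked to senescence moved both ways, with 5 of 10 entries rising and 2 falling, beside 21.1% and 21.7% of all genes tested. Those that rose included GLB1, TIMP1, CDKN2B and LMNB1. LMNB1, the lamin that senescent cells lose, ranged from 2.67 to 7.79 CPM (median 6.73) in Ctrl and from 36.6 to 47.7 CPM (median 41.1) in IR/CHT, 6.94-fold higher. IGFBP5, a secreted binding protein of insulin-like growth factors, fell from a median of 755 to 289 CPM. HMGB1 was listed under 3 gene identifiers, none of which passed the test, and reads of such copies cannot be assigned with certainty.

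The transcription factors that mark valve tissue fell. Of 14 tested, 12 fell and 1 rose (median -1.44), and the summed level went from 1133 to 1730 CPM in Ctrl to 228.2 to 527 CPM in IR/CHT. TBX20 (ENSOCUG00000007422) ranged from 350 to 526 CPM (median 406) in Ctrl and from 31.9 to 101 CPM (median 84.2) in IR/CHT. The groups did not overlap, IR/CHT L178 and L236 were the lowest, and the log2 fold change was -2.50 ± 0.23 (adjusted p = 1.26e-09). GATA4, a zinc finger factor of heart and valve development, lay between 76.9 and 231.2 CPM in Ctrl and between 10.7 and 45.9 CPM in IR/CHT, 4.81-fold lower. PRRX1, a homeobox factor of mesenchyme, and MEIS2, another homeobox factor, were 2.23-fold and 3.89-fold lower. TBX20 and GATA4 are also made by heart muscle cells, whose genes were high in Ctrl L240 and L277, and without these 2 valves 12 of 14 members fell and none rose (median -1.56). The member that rose, SNAI1, a repressor of epithelial genes, had medians of 0.807 and 2.54 CPM and lost the call without Ctrl L182, L198 or L240 or without IR/CHT L178 or L194 (log2 fold changes 1.41, 1.43, 1.55, 1.20 and 1.55).

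Wnt signals guide valve growth and maturation, and of 32 tested ligands, receptors and inhibitors, 21 fell and 2 rose (median -1.29). Among the ligands, WNT5A, which signals mainly without beta-catenin, ranged from 5.97 to 11.1 CPM (median 9.57) in Ctrl and from 0.791 to 1.90 CPM (median 1.56) in IR/CHT, 5.94-fold lower. The R-spondins, secreted amplifiers of Wnt signalling, fell as well, with RSPO3 going from a median of 54.2 to 8.02 CPM and RSPO2 from 55.2 to 13.9 CPM. The inhibitors moved in different directions. DKK2 lay between 29.2 and 66.1 CPM (median 45.4) in Ctrl and between 1.46 and 6.15 CPM (median 3.95) in IR/CHT, a log2 fold change of -3.49 ± 0.35 (adjusted p = 7.06e-09). APCDD1, a membrane inhibitor of Wnt signalling, fell 7.66-fold, whereas DKK1 rose from a median of 0.673 to 2.88 CPM and SFRP2 from 5.83 to 27.6 CPM. The target gene AXIN2, a feedback inhibitor that canonical Wnt signalling induces, had medians of 68.4 and 21.1 CPM and fell (log2 fold change -1.90, adjusted p = 1.87e-05).

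In the TGF-beta and BMP pathway, 13 of 31 fell and 3 rose (median -0.71). BMP2, a ligand that promotes bone formation, ranged from 2.51 to 9.09 CPM (median 4.74) in Ctrl and from 0.697 to 1.87 CPM (median 0.961) in IR/CHT, 4.74-fold lower. BMPR1A, a type I BMP receptor, had medians of 54.3 and 23.1 CPM and TGFB3 of 146 and 73.8 CPM, and neither overlapped between the groups. The members that rose were the TGF-beta receptor TGFBR1, the endothelial receptor ACVRL1 and ID2, an inhibitor of differentiation, which was 3.53-fold higher. Of 19 ephrins and Eph receptors, which set boundaries between cells by contact, 10 fell and 2 rose (median -1.01). EPHA3 lay between 21.6 and 42.6 CPM in Ctrl and between 2.28 and 10.0 CPM in IR/CHT, while EPHA5 rose from a median of 1.11 to 9.12 CPM.

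Matrix genes did not move as a block. Of 24 collagens and collagen-modifying enzymes, 9 rose and 5 fell (median 0.57). The share that fell was near the 21.7% of all genes tested, of which 21.1% rose. COL3A1, the type III collagen of the leaflet, lay between 3760 and 7453 CPM in Ctrl and between 4226 and 7439 CPM in IR/CHT and did not pass the test (log2 fold change 0.06 ± 0.18, adjusted p = 0.802). COL1A1 varied widely in both groups and did not pass the test (log2 fold change 0.46 ± 0.59, adjusted p = 0.541). It lay between 5264 and 7289 CPM in the 3 Ctrl libraries low in mitochondrial mRNA and between 933 and 2714 CPM in the other Ctrl libraries. In IR/CHT it was at 12496 and 12110 CPM in the 2 such libraries and between 1613 and 3501 CPM in the others, so that the high values of both groups were those of the libraries low in mitochondrial mRNA. COL8A1, a short-chain collagen of vessel walls, rose from a median of 120 to 247.7 CPM without overlap, and COL15A1, a basement membrane collagen, from 312 to 701 CPM. COL12A1, which links collagen fibrils, fell from a median of 3579 to 1393 CPM. COL5A2, a fibril-forming collagen, rose 1.57-fold, and this call was lost without Ctrl L240 and L277 (log2 fold change 0.46).

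Of 28 proteoglycans, elastic fibre and matricellular genes, 13 fell and 2 rose (median -0.79). Microfibril proteins, the scaffold on which elastic fibres form, were among those that fell. MFAP5 ranged from 248.05 to 630 CPM (median 432) in Ctrl and from 17.7 to 116 CPM (median 90.7) in IR/CHT, a log2 fold change of -2.45 ± 0.31 (adjusted p = 2.5e-07). FBN2 (fibrillin-2) was 4.61-fold and MFAP4 3.9-fold lower, again with no overlap, while FBN1 (fibrillin-1) had medians of 1292 and 1311 CPM and did not pass the test. FN1 (fibronectin), which joins cells to the matrix, lay between 3483 and 10127 CPM (median 7179) in Ctrl and between 12972 and 26923 CPM (median 23453) in IR/CHT, 2.92-fold higher. TNC (tenascin-C) also rose, from a median of 170 to 308 CPM.

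Of 22 matrix proteases and their inhibitors, 9 rose and 5 fell, beside 21.1% and 21.7% of all genes tested. The tissue inhibitors of metalloproteinases went opposite ways. TIMP1 ranged from 46.7 to 101 CPM (median 63.3) in Ctrl and from 393 to 724 CPM (median 508) in IR/CHT, 7.3-fold higher. TIMP4 lay between 18.2 and 68.8 CPM (median 55.1) in Ctrl and between 0.621 and 4.42 CPM (median 1.92) in IR/CHT, 20.9-fold lower (log2 fold change -4.39 ± 0.44, adjusted p = 5.55e-09). TIMP3 fell as well, from a median of 1531 to 683 CPM. MMP1, the interstitial collagenase, was at 0 in all 7 Ctrl valves, where a count of 0 allows up to 0.144 to 0.236 CPM, and lay between 0.240 and 19.6 CPM in IR/CHT. MMP2, a gelatinase of fibroblasts, had medians of 895 and 1030 CPM and did not pass the test. ADAM17, which sheds TNF from the cell surface, was 3.8-fold higher.

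Bone-related genes moved in both directions, as did all genes tested. Of 21 tested, 5 rose and 7 fell (median -0.40). The share that rose was near that of all genes tested (21.1%), of which 21.7% fell. Without the libraries low in mitochondrial mRNA, 5 bone-related genes rose and 10 fell. SPP1 (osteopontin), which macrophages also make, ranged from 44.4 to 106 CPM (median 56.4) in Ctrl and from 580 to 1941 CPM (median 1096) in IR/CHT, a log2 fold change of 4.17 ± 0.43 (adjusted p = 9.96e-09). RUNX2, the master regulator of osteoblasts, rose from a median of 0.265 to 2.75 CPM, with overlapping groups. SLC20A1, a phosphate importer, rose 1.81-fold. BGLAP (osteocalcin), a late osteoblast protein, lay between 13.2 and 36.5 CPM (median 20.1) in Ctrl and between 0.355 and 4.94 CPM (median 1.57) in IR/CHT, 11.2-fold lower without overlap. ALPL, the alkaline phosphatase of mineralizing cells, had medians of 3.65 and 3.51 CPM and did not pass the test (adjusted p = 0.681).

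Endothelial genes had the lowest share of calls among the 35 lists. Of 17 tested, 1 rose (ROBO4) and 1 fell (CLEC14A), 11.8% in all against 42.8% of all genes, and both calls were lost without single libraries. PECAM1, the junctional protein CD31, ranged from 20.2 to 282 CPM (median 192.6) in Ctrl and from 20.5 to 310 CPM (median 223) in IR/CHT, with a log2 fold change of 0.01 ± 0.69. The summed endothelial level varied from 240.7 to 1594 CPM within Ctrl and from 262.5 to 1290 CPM within IR/CHT. For ROBO4, a guidance receptor of endothelium, the call was lost without Ctrl L182, L198, L240 or L277 or IR/CHT L194, L273 or L547 (log2 fold changes 0.64, 0.56, 0.71, 0.71, 0.65, 0.69 and 0.68). For CLEC14A, an endothelial lectin, it was lost without Ctrl L166 or L261 or IR/CHT L194 or L236 (-1.28, -1.33, -1.45 and -1.39). The CLEC14A call was also lost without the libraries low in mitochondrial mRNA (-0.68 against -1.55) and with plate as a covariate (-1.30).

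Of 14 smooth muscle contractile genes, 3 rose and 6 fell (median -0.39), beside 21.1% and 21.7% of all genes tested. Without the libraries low in mitochondrial mRNA, 3 rose and 3 fell. ACTA2, the alpha-smooth muscle actin that activated interstitial cells also make, ranged from 139 to 267.9 CPM (median 201.5) in Ctrl and from 285 to 646 CPM (median 427) in IR/CHT, 2.15-fold higher without overlap (adjusted p = 5.57e-05). ACTG2, the enteric smooth muscle actin, was 11.6-fold higher. SYNPO2, an actin-bundling protein, fell from a median of 511 to 227 CPM.

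Heart muscle genes, made by the myocardium that adjoins the valve, fell in 21 of 25 cases and rose in none (median -4.26). Their summed level ranged from 673 to 15383 CPM among the Ctrl valves, with the highest in L240 and L277 (5828 CPM), and from 383 to 681 CPM among the IR/CHT valves. MYL3, a ventricular myosin light chain, lay between 6.79 and 299 CPM (median 21.7) in Ctrl and between 0.0601 and 3.56 CPM (median 1.25) in IR/CHT. Without Ctrl L240 and L277, 18 members fell (median -2.47), and without L240 alone the median was -3.20. Within plate 1, which holds neither library, 7 of 25 fell (median -1.74), and within plate 2, 19 fell (median -5.39). NEBL, an actin-binding protein of heart muscle, went from a median of 43.2 to 4.92 CPM.

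**Figure D4:**
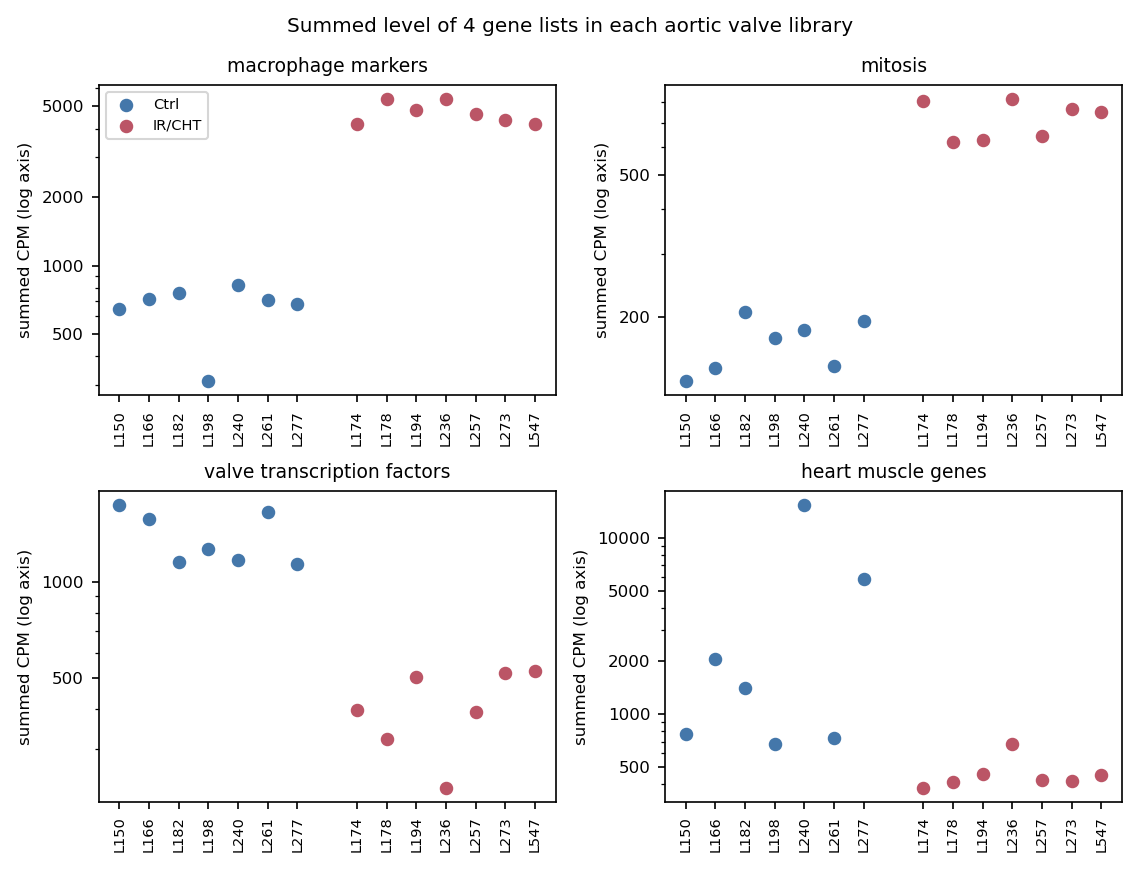
Summed CPM of macrophage markers, mitosis genes, valve transcription factors and heart muscle genes in each of the 7 Ctrl (blue) and 7 IR/CHT (red) aortic valve libraries, on log axes. The groups are apart in the first 3 panels, while for heart muscle genes Ctrl L240 (15383 CPM) and L277 (5828 CPM) stand above the other Ctrl libraries and IR/CHT L236 (681 CPM) reaches the lowest of them (673 CPM).

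All 9 tested Schwann cell and nerve markers fell (median -1.71). ERBB3, the neuregulin receptor of Schwann cells, ranged from 62.5 to 144 CPM (median 106) in Ctrl and from 2.91 to 21.0 CPM (median 13.3) in IR/CHT, 8.39-fold lower (adjusted p = 3.02e-07). NCAM1, a neural adhesion molecule that other cells also carry, fell 3.28-fold. Of these 9 genes, 7 fell without the libraries low in mitochondrial mRNA.

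Of 6 tested adipocyte markers, 3 rose and 3 fell. PPARG, LPL and CEBPA, which macrophages also express, were 8.16-fold, 12.5-fold and 5.16-fold higher, whereas LIPE, the hormone-sensitive lipase, was 3.01-fold lower. ADIPOQ, the defining adipocyte hormone, had a median of 1.01 CPM in Ctrl and 0.360 CPM in IR/CHT. None of the 3 that fell passed the test without the libraries low in mitochondrial mRNA. Of 3 red blood cell markers, ALAS2, the erythroid enzyme of heme synthesis, fell from a median of 46.1 to 10.2 CPM with overlapping groups (adjusted p = 0.0433), a call lost without any of Ctrl L150, L166 and L182 and IR/CHT L174, L178, L236, L257 and L273 (log2 fold changes from -2.59 to -2.14).

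Of 15 genes of iron and heme handling, 9 rose and 1 fell (median 0.73). HMOX1, the inducible heme oxygenase, ranged from 4.83 to 11.2 CPM (median 8.21) in Ctrl and from 75.6 to 136 CPM (median 106) in IR/CHT, a log2 fold change of 3.60 ± 0.28 (adjusted p = 5.53e-11). FTL, the ferritin light chain that stores iron, had medians of 498 and 3770 CPM, and SLC11A2, an iron importer, was 6.95-fold higher. CYBRD1, a ferric reductase, fell from a median of 252 to 110 CPM. Among 24 nuclear genes of the mitochondrial respiratory chain, 14 rose and none fell (median 0.65). NDUFS3, a subunit of complex I, rose 1.88-fold without overlap between the groups. The summed level of the respiratory chain genes was lowest in the libraries low in mitochondrial mRNA, in Ctrl and IR/CHT alike. In Ctrl it was highest in L240 (2057 CPM) and L277 (1773 CPM). Without the 5 libraries low in mitochondrial mRNA, 6 members rose. Within plate 2, 2 members rose, where 2002 of all 15412 genes tested were higher. Of 14 glucocorticoid genes, 4 rose and 5 fell (median -0.57), beside 21.1% and 21.7% of all genes tested. KLF9, a target of the glucocorticoid receptor, fell 2.27-fold and NR3C2, the mineralocorticoid receptor, 4.09-fold, while STAR, a mitochondrial cholesterol carrier, rose 2.83-fold.

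Valves that had been irradiated differed from those on the same diet and vitamin D2 without irradiation. Of 15408 genes tested, 3043 (19.7%) were differentially expressed, of which 1526 (9.90%) were higher and 1517 (9.85%) lower in IR/CHT. All 6 CHT valves were on plate 1, and 2753 genes were called with plate 1 libraries alone. When a fold change over 1.5 was itself tested, 1152 genes remained. CHT and Ctrl differed in 1833 genes (11.9%), of which 1297 (8.42%) were higher and 536 (3.48%) lower in CHT, so that 70.8% of them were higher. That count was 2962 (55.1% of them higher) without Ctrl L240 and L277 and 1182 (83.8% of them higher) without the libraries low in mitochondrial mRNA. The comparisons share libraries, so that their values are given side by side only.

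Genes higher in IR/CHT than in CHT with the smallest p were SRGN, ABHD12, TIMP1, SAMHD1 and CTSZ. SRGN (serglycin), a proteoglycan of the granules of blood cells, had medians of 7.06 CPM in Ctrl, 24.8 CPM in CHT and 124 CPM in IR/CHT. It was higher in every IR/CHT valve (93.5 to 216 CPM) than in any CHT valve (17.0 to 44.4 CPM), with a log2 fold change of 2.37 against CHT (adjusted p = 1.56e-06). TIMP1 had medians of 63.3, 113 and 508 CPM in the same order and SAMHD1, a nuclease that limits viral replication, of 18.7, 42.4 and 109 CPM. Those lower with the smallest p were TET1, PRKG1, CNGA2, PDE3A and TRPM3. TET1, which oxidizes methylated cytosine in DNA, had medians of 54.1 CPM in Ctrl, 48.4 CPM in CHT and 15.2 CPM in IR/CHT. Its log2 fold change was -1.84 against CHT (adjusted p = 7.82e-07), and CHT against Ctrl did not pass the test (-0.24, adjusted p = 0.36).

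The values of a gene group in CHT against Ctrl and in IR/CHT against CHT are given side by side, and the difference between them was not tested. Mitosis genes had a median log2 fold change of 2.82 in CHT against Ctrl, with 31 of 36 higher, and of 0.57 in IR/CHT against CHT, with 5 higher. For sterol synthesis and uptake the medians were -1.25 (14 of 18 lower and 1 higher) and -0.03 (3 lower and 3 higher), and for heart muscle genes -4.04 (18 of 25 lower) and 0.11 (1 lower). Without Ctrl L240 and L277, the valves highest in heart muscle genes, the median of these in CHT against Ctrl was -2.16 (13 lower). Without the libraries low in mitochondrial mRNA, 9 of the sterol genes were lower in CHT than in Ctrl (median -1.23), and in IR/CHT against CHT 1 was lower and 1 higher. Of the 36 mitosis genes, 2 were then higher in IR/CHT than in CHT. Among all 15513 genes tested without these libraries, 1071 were higher and 1326 lower in IR/CHT than in CHT. SPP1 had a median of 1135 CPM in CHT and 1096 CPM in IR/CHT (log2 fold change 0.02, adjusted p = 0.985). Interferon response genes had medians of 0.84 in CHT against Ctrl, with 6 of 17 higher, and of 1.69 in IR/CHT against CHT, with 12 higher. Without the libraries low in mitochondrial mRNA these medians were 0.44 (6 higher) and 1.77 (15 higher). For ISG15, a ubiquitin-like interferon-induced protein, the log2 fold changes were 0.45 and 2.52, and this gene was chosen after its values were seen. Among p53 targets, 3 of 18 were higher in CHT than in Ctrl and 12 were higher in IR/CHT than in CHT. Their medians were 0.26 and 0.79, and those of ZMAT3 were 0.56 (adjusted p = 0.063) and 1.25 (adjusted p = 0.000103).

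The groups that fell in IR/CHT against Ctrl are given in the same way. Of 14 valve transcription factors, 2 were lower in CHT than in Ctrl (median -0.47) and 5 without Ctrl L240 and L277 (median -0.51), whereas 10 were lower and 1 higher in IR/CHT than in CHT (median -0.94). TBX20 lay between 142 and 292 CPM in CHT, below every Ctrl valve and above every IR/CHT valve. Of 32 Wnt genes, 2 were lower and 1 higher in CHT than in Ctrl (5 and 1 without Ctrl L240 and L277) and 11 were lower in IR/CHT than in CHT. DKK2 had a median of 26.4 CPM in CHT, with log2 fold changes of -0.76 against Ctrl (adjusted p = 0.12) and of -2.73 in IR/CHT against CHT (adjusted p = 7.13e-06). MFAP5 had a median of 344 CPM in CHT, and the corresponding values were -0.31 and -2.14. None of the 9 Schwann cell and nerve markers was called in CHT against Ctrl, and 6 were lower in IR/CHT than in CHT, or 2 without the libraries low in mitochondrial mRNA. Macrophage markers were called in both, with 13 of 19 higher in CHT than in Ctrl and 15 higher in IR/CHT than in CHT (medians 1.86 and 1.5).

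The aortas of these rabbits were also sequenced, and the responses to IR/CHT were compared through the interaction of tissue and treatment. Of 16125 genes tested over 54 libraries, 5289 (32.8%) responded differently at an adjusted p under 0.05, of which 1787 (11.1%) had the higher log2 fold change in the aortic valve and 3502 (21.7%) the lower. The median interaction was -0.29 over all genes, -0.20 with DESeq2 size factors and -0.09 without Ctrl L240 and its aorta, where 2833 genes were higher and 2786 lower. All aorta libraries were on plate 2, and 2344 genes were called within that plate. Log2 fold changes of both tissues in the next paragraph are those of this fit over both tissues, whose values for the valve differ slightly from those of the valve libraries alone given above, and the interactions are to be read against the median of -0.29.

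Genes with the smallest interaction p included some that moved in opposite directions. TBX20 was lower in the IR/CHT aortic valve (log2 fold change -2.61 ± 0.31) and higher in the IR/CHT aorta, at means of 8.58 CPM in Ctrl and 34.8 CPM in IR/CHT aortas (log2 fold change 2.02 ± 0.31, interaction -4.64 ± 0.44, adjusted p = 3.2e-11). Among heart muscle genes, MYH7 had medians of 7.90 CPM in Ctrl and 49.4 CPM in IR/CHT aortas, and MYL2 of 0.708 and 3.08 CPM. ACTC1 had medians of 3.85 and 2.08 CPM and TNNC1 of 73.9 and 64.9 CPM. The part of heart muscle in the TBX20 values was not tested. FBN2, like TBX20, was lower in the valve (-2.32) and higher in the aorta, at means of 2.65 CPM in Ctrl and 29.9 CPM in IR/CHT aortas (log2 fold change 3.49, interaction -5.81). RSPO2 was barely read in the Ctrl aortas, at a mean of 0.304 CPM ± 0.257 (SD, n = 7) and at most 11 read pairs, where a count of 0 allows up to 0.172 to 0.194 CPM. Its mean in the IR/CHT aortas was 7.63 CPM, and the fitted values (log2 fold change 4.61, interaction -6.63) rest on that low level. In the valve it was lower (-2.02). ADAMTS3, a procollagen protease, and AKAP7, an anchor of protein kinase A, had log2 fold changes of -2.97 and -1.89 in the valve and of 0.66 and 0.45 in the aorta. CCN3, a matricellular protein, rose in the valve (log2 fold change 2.67) and was lower in the IR/CHT aorta (log2 fold change -1.45), where its level was higher to begin with, at a mean of 1490 CPM in Ctrl. ANO4 rose in both, with log2 fold changes of 7.97 in the valve and 1.19 in the aorta. BICD1, an adaptor of the motor dynein, was higher in the valve (4.21) and did not pass the test in the aorta (-0.18, adjusted p = 0.564). PPM1H, a protein phosphatase, and PANX1, a channel that releases ATP, had interactions of 3.36 and 2.18.

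**Figure D5:**
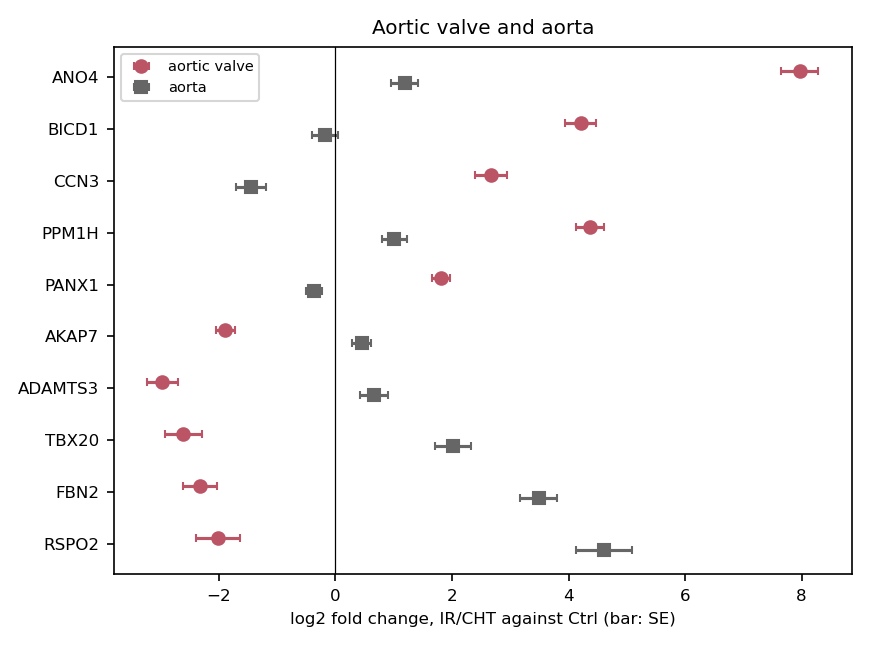
Log2 fold change of IR/CHT against Ctrl, with its SE, in the aortic valve (circles) and in the aorta (squares), both from the fit over both tissues, for the 5 genes with the smallest interaction p in each direction. TBX20, FBN2 and RSPO2 lie below 0 in the valve (-2.61, -2.32 and -2.02) and above 0 in the aorta (2.02, 3.49 and 4.61, the last from a mean of 0.304 CPM in Ctrl aortas), and CCN3 lies above 0 in the valve (2.67) and below it in the aorta (-1.45).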

How the data were processed

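Whole-number read pair counts per gene were deposited by the authors, who prepared libraries with a stranded low-input total RNA kit (SMARTer Pico) and processed the reads with bcl2fastq 2.20 and nf-core/rnaseq 1.4.2 on OryCun2.0 with Ensembl 99. Of 29587 genes, 14716 had a symbol. Counts were fitted with edgeR 4.0.16 (R 4.3.3; TMM, filterByExpr, robust quasi-likelihood test) over all 27 aortic valve libraries with 1 mean per treatment (Ctrl, CHT, Lard and IR/CHT), or over 54 libraries with the aorta, in which each tissue and treatment had its own mean. SE is the log2 fold change divided by the square root of F. Groups came from the labels, and the scripts were tested on simulated data. DESeq2 1.42.0 was an alternative. Depth per library is given at the start, and low counts set the precision of low genes.

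The members, gene lists and named genes were chosen with earlier results of these data known. Lists held 912 entries, of which 664 were found by symbol and 594 tested. Named genes were the 10 with the smallest p in each direction, the 4 called members with the smallest p per list (plus the first of the other direction), fixed anchors, and the 5 with the smallest p in each direction against CHT and in the interaction. Other members were named after their values were seen. IL6, PF4, CDKN1A, MDM2, MKI67, MYH6 and TNNT2 had no symbol. No genome or sequence was used here. Results of some genes that this rule names are not reported here.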

Additional observations from a re-analysis of the deposited data

Results flagged for a closer look

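For each named gene, the 7 libraries of each group were checked for a library far from the others on log2(CPM + 0.5) by Dixon's test, and 14 of 346 checks (4.05%) found one, where chance gives about 1 in 20. In Ctrl, L150 was low for CTSB (269.03 CPM), HMOX2 (20.3 CPM) and LMNB1 (2.67 CPM), L166 was high for CTSZ (91.9 CPM), and L198 was low for PECAM1 (20.2 CPM). L277 was low for IGFBP5 (382 CPM) and SH3KBP1 (39.5 CPM), and L240 was low for TRPM3 (94.2 CPM). In IR/CHT, L236 was high for ABHD12 (314 CPM), PANX1 (51.8 CPM) and UQCRC1 (95.2 CPM), L174 was low for CSF1R (363 CPM), L178 was low for MCM10 (2.72 CPM), and L194 was high for POLE (36.6 CPM). Ctrl L150 and L166 and IR/CHT L178 and L194 are among the libraries low in mitochondrial mRNA.

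By the interaction test, 5289 genes responded to IR/CHT differently in aortic valve and aorta. The differences of the log2 fold changes in the fit over both tissues, aortic valve minus aorta, were 6.78 for ANO4, 4.39 for BICD1, 4.11 for CCN3, 3.36 for PPM1H and 2.18 for PANX1. In the other direction they were -6.63 for RSPO2, -5.81 for FBN2, -4.64 for TBX20, -3.63 for ADAMTS3 and -2.34 for AKAP7.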

How the results depend on the processing

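Of the named genes called in IR/CHT against Ctrl, 139 kept their direction and call under all 25 alternatives and the other 27 lost the call under at least 1, with the direction kept. Of these, 5 (ALAS2, CLEC14A, ROBO4, SNAI1 and PAX5) lost it without 1 library and are given with their values above. Of the other 22, 14 lost it only where a single plate was fitted, and 8 (ACKR3, CLU, COL5A2, CYBRD1, IL1B, LIPE, NDUFA2 and UQCRC1) under some other alternative. By alternative, the call was lost for 21 genes in plate 2 alone, 11 in plate 1 alone, 11 when a 1.5-fold change was tested and 6 without the libraries low in mitochondrial mRNA. Genes called in IR/CHT against Ctrl numbered 5990 to 6864 without 1 library, 7451 with DESeq2, 7186 without a filter on low counts, 4479 when a 1.5-fold change was tested, 6457 with plate as a covariate and 3372 in plate 2 alone. No gene was called in the opposite direction under any of these. Members called over all lists numbered 397 to 411 without 1 library. Against CHT, 2537 to 3299 genes were called without 1 library and 1152 when the fold was tested. In CHT against Ctrl, 2962 genes were called without L240 and L277 and 1182 without the libraries low in mitochondrial mRNA, against 1833. Of the red blood cell markers, the median log2 fold change was 0.42 in plate 2 alone and -1.06 without Ctrl L182, against -1.79. The cause was not tested.

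The interaction with the aorta called 3977 to 5936 genes without 1 rabbit, 2344 in plate 2 alone, 6472 without L240 and L277, 3860 without the libraries low in mitochondrial mRNA and 5686 with the rabbit as a replicate block. Both tissues of a rabbit deviated together beyond a correlation of 0.1 in 11 of 14 rabbits (median 0.209). The share of calls higher in the valve was 33.8%, 43.0% with DESeq2 size factors or without a filter on low counts, and 50.4% without L240. Alternatives that left out libraries low in mitochondrial mRNA or high in heart muscle genes, and DESeq2 with only the 2 groups, were chosen after seeing the data. The diet, vitamin D2 and irradiation cannot be told apart against Ctrl, and bulk levels do not say which cells changed.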
